A study of Mus musculus with 8 samples.

Results

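The 10 genes of muscle wasting described here were followed in the mouse heart 4 h after a cardiac glycoside. They are the FOXO transcription factor genes Foxo1, Foxo3, Foxo4 and Foxo6, the ubiquitin ligase genes Fbxo32, Trim63, Trim54, Fbxo30 and Fbxo21, and Mstn, the gene of myostatin. They were chosen by name, with earlier results of these data known. Each was measured by probe sets annotated to exactly 1 gene symbol, averaged per gene. All 10 were found among 22180 genes, on 12 of 23521 such probe sets.

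The digoxin hearts came from male wild-type mice of 8 to 10 weeks, with the strain label C57BL6JRj (C57BL6/J according to the growth protocol), that received digoxin at 1 mg/kg into the peritoneum at ZT5 and were killed at ZT9, where ZT0 is lights-on. The vehicle hearts came from mice of the same strain, sex and age that received the solvent alone, a mix of ethanol, propylene glycol, citric acid and sodium phosphate, at the same hours. Expression was read from heart RNA on the Affymetrix Mouse Gene 2.0 ST array, with 5 digoxin and 3 vehicle arrays, and the fourth vehicle sample that the design text counts was not analysed here. Digoxin inhibits the Na/K-ATPase, the sodium pump of the plasma membrane.

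FOXO proteins are forkhead transcription factors held in the cytoplasm when insulin and growth factor signalling activates the kinase AKT. When that signal wanes they enter the nucleus and switch on genes of protein breakdown, autophagy and cell cycle arrest. In skeletal and cardiac muscle their best known targets are the ligases atrogin-1 and MuRF1, which tag muscle proteins for the proteasome, and myostatin is a secreted TGF-beta family member that limits muscle mass and acts through activin receptors and SMAD proteins.

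The deposited log2 values had been centred probe set by probe set, so they compare arrays for 1 gene and give no level, and genes cannot be ranked by abundance. Changes are digoxin minus vehicle on the log2 scale from limma, fitted to all genes with p adjusted over all of them (Benjamini-Hochberg, threshold 0.05, two-sided). Vehicle replicate 3 stood apart, with an interquartile range of 0.216 over all probe sets, while the other 7 arrays lay between 0.0792 and 0.115. In bulk heart RNA, fewer cells of a type and less RNA per cell cannot be told apart.

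Of the 10 genes, 1 passed the test, Fbxo32. It rose to 1.42 times the vehicle level (95% interval 1.25 to 1.61). The other 9 did not pass. Over all genes tested, 0.947% were called higher. At an unadjusted limma p under 0.05, 4 of the 10 genes were higher in digoxin hearts (Fbxo32, Foxo3, Mstn and Trim63) and 0 lower, against 6.32% of all genes higher and 5.99% lower. Foxo3 and Mstn were, with Fbxo32, the genes whose digoxin and vehicle arrays did not overlap, 3 of 10 genes and all higher in digoxin hearts, while 4.4% of all genes were higher without overlap. Digoxin means were higher for 8 of the 10 genes, against 44.4% of all genes, and lower for Foxo6 and Fbxo21. The median log2 change was 0.10 over the 10 genes and -0.01 over all genes, and the 10 values ran between -0.06 and 0.50. Since the 10 genes were chosen with earlier results known, their counts beside those of all genes are a description.

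**Figure D1:**
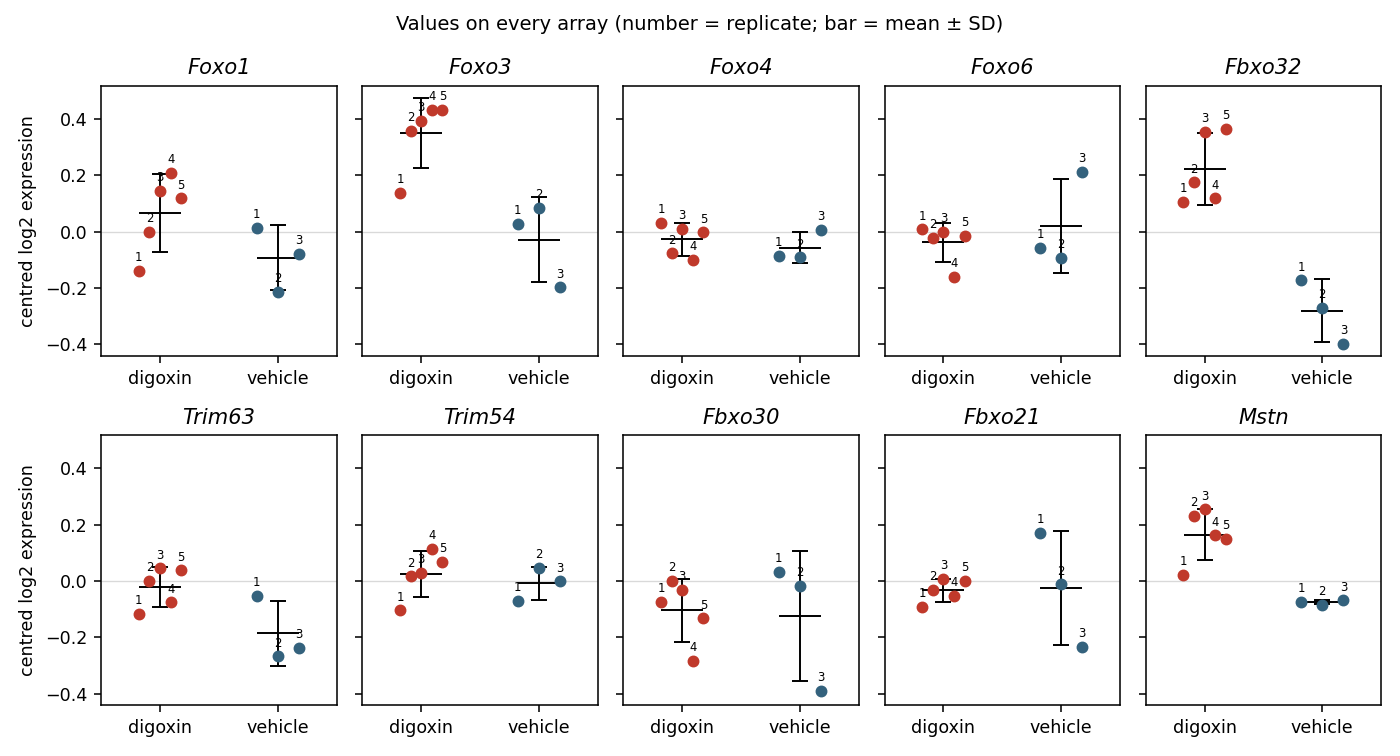
Centred log2 expression (vertical axis) of each of the 10 genes on every array, with 5 digoxin hearts left of 3 vehicle hearts, points numbered by replicate and bars at the mean ± SD. Every digoxin point lies above every vehicle point for Foxo3, Fbxo32 and Mstn, and the groups overlap for the other 7 genes.

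Among the transcription factors, Foxo3 had the largest log2 change. Foxo3, the family member known to drive atrogin-1 in muscle, stood at 0.14, 0.36, 0.39, 0.43 and 0.43 in digoxin replicates 1 to 5 and at 0.03, 0.09 and -0.20 in vehicle replicates 1 to 3. The groups did not overlap, but digoxin replicate 1 lay near the highest vehicle array while the other 4 digoxin arrays lay close together. The log2 change was 0.38 (SE 0.09, 95% interval 0.18 to 0.58), which is larger than 98.5% of all genes, and it missed the threshold (adjusted p = 0.0933 in limma). Without digoxin replicate 1 the change was 0.43 and the adjusted p 0.0447, and without vehicle replicate 3 the change was 0.29 and the adjusted p 0.158.

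Foxo1, which promotes fasting responses in liver and muscle, stood at -0.14, 0.00, 0.14, 0.21 and 0.12 in digoxin hearts and at 0.01, -0.21 and -0.08 in vehicle hearts. On 3 digoxin arrays the value lay above all vehicle arrays, and the groups overlapped. The log2 change was 0.16 (95% interval -0.04 to 0.35, adjusted p = 0.505 in limma). Its 2 probe sets gave like changes of 0.16 and 0.16, but they disagreed on digoxin replicate 1, at 0.15 on the first probe set and -0.42 on the second.

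Foxo4, a FOXO factor also made in muscle, lay between -0.10 and 0.03 in digoxin hearts and between -0.09 and 0.01 in vehicle hearts. Its log2 change was 0.03 with a 95% interval of -0.08 to 0.14, the narrowest of the 4 factors. Foxo6, best known from brain, stood between -0.16 and 0.01 in digoxin hearts and at -0.06, -0.09 and 0.21 in vehicle hearts. Both the lowest digoxin array, replicate 4, and the highest vehicle array, replicate 3, stood away from the rest of their group. The change of Foxo6 was -0.06 (95% interval -0.23 to 0.11), and it was 0.04 without vehicle replicate 3.

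Foxo3 and Foxo1 were also set against each other on each array. The difference Foxo3 minus Foxo1 was 0.28 ± 0.05 on the digoxin arrays (SD, n = 5), against 0.06 ± 0.21 on the vehicle arrays (SD, n = 3), a gap of 0.22. By an exact two-sided permutation test over the 56 ways to choose 3 of 8 arrays, p was 0.0714, also 0.0714 after adjustment over the 4 differences between genes tested in this way. A larger change of Foxo3 than of Foxo1 was thus not shown.

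Among the ligases, Fbxo32 was the gene that passed. Fbxo32 encodes atrogin-1 or MAFbx, the F-box subunit that brings substrates to an SCF ubiquitin ligase. It stood at 0.10, 0.18, 0.35, 0.12 and 0.37 in digoxin hearts and at -0.17, -0.27 and -0.40 in vehicle hearts. Replicates 3 and 5 were the highest digoxin arrays, and the lowest digoxin array was 0.28 above the highest vehicle array. The log2 change was 0.50 (SE 0.08, 95% interval 0.32 to 0.69, adjusted p = 0.0227 in limma), higher than in 99.3% of all genes. With 1 array left out it lay between 0.45 and 0.56, but the call was lost without digoxin replicate 2 (adjusted p = 0.0585), 3 (0.0608) or 5 (0.0567) and without vehicle replicate 2 (0.0823) or 3 (0.0515).

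Trim63 encodes MuRF1, the RING-finger ligase of the sarcomere that is usually measured beside atrogin-1. Its values were -0.12, 0.00, 0.04, -0.08 and 0.04 in digoxin hearts and -0.05, -0.27 and -0.24 in vehicle hearts. On 3 digoxin arrays the value lay above all vehicle arrays, and vehicle replicate 1 lay among the digoxin arrays. The log2 change was 0.16 (SE 0.06, 95% interval 0.02 to 0.31, adjusted p = 0.343 in limma). Trim63 did not pass under any alternative, with changes between 0.12 and 0.23.

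Trim54, the gene of the related ligase MuRF3, lay between -0.10 and 0.11 in digoxin hearts and between -0.07 and 0.05 in vehicle hearts. The change of Trim54 was 0.03 (95% interval -0.10 to 0.16), with 0.05 and 0.01 on its 2 probe sets. Fbxo30, known as MUSA1, a ligase gene of muscle that BMP signalling restrains, stood at -0.07, 0.00, -0.03, -0.28 and -0.13 in digoxin hearts and at 0.03, -0.02 and -0.39 in vehicle hearts. Vehicle replicate 3 was the lowest of all 8 arrays. The change of Fbxo30 was 0.02 (95% interval -0.22 to 0.26), and -0.11 without that array.

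Fbxo21, known as SMART, a FOXO-dependent ligase gene of denervated muscle, lay between -0.09 and 0.01 in digoxin hearts and at 0.17, -0.01 and -0.23 in vehicle hearts. All 5 digoxin arrays fell inside the vehicle range. The change of Fbxo21 was -0.01 (95% interval -0.19 to 0.18). For Foxo4, Foxo6, Trim54, Fbxo30 and Fbxo21 the intervals reached at most 0.26 in either direction on the log2 scale, so they do not hold a change of the size fitted for Fbxo32.

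**Figure D2:**
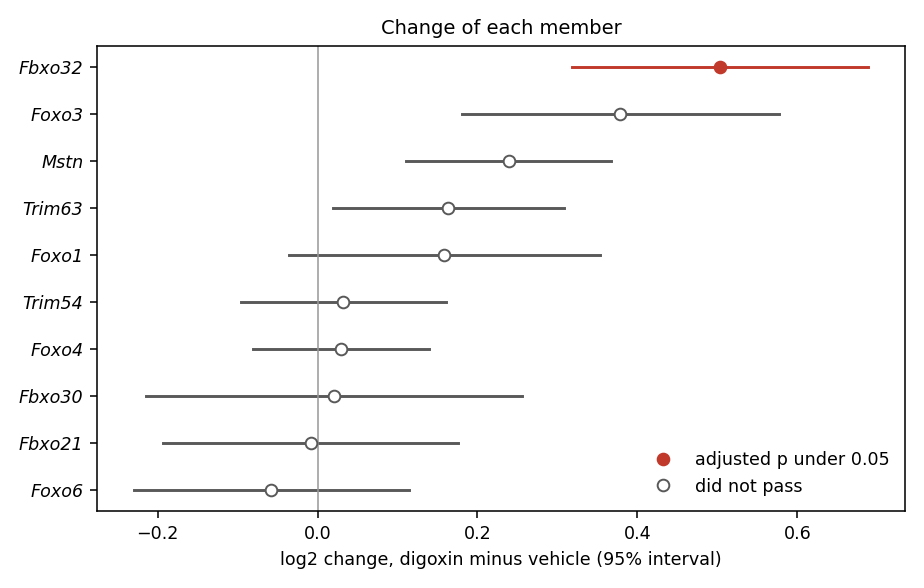
Log2 change, digoxin minus vehicle (horizontal axis), with 95% intervals of the moderated fit for the 10 genes, ordered by change. The filled point is Fbxo32 at 0.50, which passed the test, and the open points, among them Foxo3 at 0.38 and Mstn at 0.24, did not.

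The change of Fbxo32 was compared with that of other ligase genes on the same arrays. Fbxo32 minus Trim63 was 0.25 ± 0.07 on the digoxin arrays (SD, n = 5), against -0.09 ± 0.08 on the vehicle arrays (SD, n = 3), so that the change of Fbxo32 was larger by 0.34. It was larger than that of Fbxo30 by 0.48 and than that of Fbxo21 by 0.51. In each of the 3 comparisons all digoxin arrays lay above all vehicle arrays, and the exact two-sided permutation test gave p = 0.0179, which is the lowest value possible with 8 arrays, and 0.0238 adjusted over the 4 differences. These pairs were chosen with the change of Fbxo32 known, so the p values are not independent evidence.

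Mstn encodes myostatin, a brake on muscle growth that heart muscle also makes. It stood at 0.02, 0.23, 0.25, 0.16 and 0.15 in digoxin hearts and at -0.07, -0.08 and -0.07 in vehicle hearts. The 3 vehicle arrays were nearly equal, and digoxin replicate 1 was the lowest digoxin array, though above all vehicle arrays. The log2 change was 0.24 (SE 0.06, 95% interval 0.11 to 0.37), which did not pass (adjusted p = 0.101 in limma). Without digoxin replicate 1 it was 0.27 and passed (adjusted p = 0.0447).

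Digoxin replicate 1 was the lowest digoxin array in 7 of the 10 genes, namely Foxo1, Foxo3, Fbxo32, Trim63, Trim54, Fbxo21 and Mstn. For Foxo1 and Trim54 this is the mean of 2 probe sets that differed on that array. They stood at 0.15 and -0.42 for Foxo1 and at 0.00 and -0.21 for Trim54. Digoxin replicate 1 was the lowest digoxin array in 20.8% of all genes and in 32.9% of the 210 genes that rose. Leaving it out added Foxo3 and Mstn to the calls, 3 of the 10 genes in all, while 159 of all 22180 genes rose in that fit. Neither Foxo3 nor Mstn passed when any other array was left out.

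The stretch of DNA around the transcription start was read for the 7 genes that had a window in the RefSeq promoter table (build GRCm38.p6, 250 bases before to 50 after the start). The 3 motifs searched, on both strands, were the FOXO cores TGTTTAC and TATTTAC and a glucocorticoid element, defined as GNACA and TGTNC with 3 bases of any kind between them, which reads the same on both strands. Trim63 is shown because it held 2 of them, and Foxo3 and Mstn because their arrays separated. Capitals mark the motif letters, and each line runs 5′ to 3′ along the gene.
Trim63, chr4:134314870-134315169, plus strand: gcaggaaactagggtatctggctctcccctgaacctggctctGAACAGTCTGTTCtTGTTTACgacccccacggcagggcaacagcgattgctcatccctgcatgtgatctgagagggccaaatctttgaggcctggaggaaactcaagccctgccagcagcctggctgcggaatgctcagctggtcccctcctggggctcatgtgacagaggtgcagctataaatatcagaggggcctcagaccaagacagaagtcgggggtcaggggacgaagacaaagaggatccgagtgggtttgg
Foxo3, chr10:42276646-42276945, minus strand: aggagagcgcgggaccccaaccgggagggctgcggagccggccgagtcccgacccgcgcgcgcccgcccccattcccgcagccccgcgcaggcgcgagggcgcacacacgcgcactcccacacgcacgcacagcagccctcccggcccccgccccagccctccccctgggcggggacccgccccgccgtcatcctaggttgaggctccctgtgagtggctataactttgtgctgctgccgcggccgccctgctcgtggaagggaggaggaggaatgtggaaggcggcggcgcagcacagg
Mstn, chr1:53061390-53061689, plus strand: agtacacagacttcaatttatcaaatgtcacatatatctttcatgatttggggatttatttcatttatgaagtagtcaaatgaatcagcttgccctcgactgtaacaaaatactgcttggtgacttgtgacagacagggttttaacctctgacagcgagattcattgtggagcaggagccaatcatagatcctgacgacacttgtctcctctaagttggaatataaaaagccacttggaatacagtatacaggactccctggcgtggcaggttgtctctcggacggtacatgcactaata

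In Trim63 a glucocorticoid element lay 208 to 196 bases upstream of the start, and a FOXO core TGTTTAC lay 194 to 188 bases upstream, with no shared letters. In the windows of Foxo1, Foxo3, Trim54, Fbxo30, Fbxo21 and Mstn these letters were not found. Of 32851 such windows in the table, 3.65% held TGTTTAC, 3.04% held TATTTAC and 0.475% held the glucocorticoid element. The matches are a description of sequence. The Foxo3 window was 75.0% G and C, and the Mstn window 41.3%. Trim63, which held both elements, did not pass the test. Fbxo32, the gene that passed, had no window in the promoter table, nor had Foxo4 and Foxo6. These windows therefore cannot show whether the letters go with a call.

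Calls were also made among genes reported as FOXO targets. Of 29 measured targets, leaving out the 10 genes above, 7 rose, 1 fell and 21 did not pass. Across all genes 0.947% rose and 0.415% fell. At an unadjusted limma p under 0.05, 11 of the 29 were higher and 1 lower, against 6.32% and 5.99% of all genes. The list was chosen with earlier results of these data known, so its counts beside those of all genes are a description. The median log2 change of the targets was 0.10 (0.06 when vehicle replicate 3 was left out, 0.19 when replicate 1 was). With all arrays the median over all genes was -0.01. Digoxin means were higher for 24 of the 29 targets, against 44.4% of all genes. The targets that rose were Cdkn1a (2.24), which encodes the cell cycle inhibitor p21, Depp1 (1.63), a gene of autophagy control named for its induction in decidua, Cited2 (0.94), a CBP/p300-binding coregulator, Sesn1 (0.73), the mTORC1 inhibitor sestrin 1, and, named after their values were seen, Txnip (0.85), the thioredoxin-binding arrestin, Bcl6 (0.68), a transcriptional repressor, and Bnip3 (0.54), a mitophagy receptor. Several of them are also known targets of p53 or of glucocorticoids.

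Cited2 stood at 0.44 ± 0.06 on the digoxin arrays (SD, n = 5), against -0.50 ± 0.06 on the vehicle arrays (SD, n = 3) (adjusted p = 6.8e-05 in limma). Depp1 averaged 1.12 ± 0.18 on the digoxin arrays (SD, n = 5), against -0.50 ± 0.17 on the vehicle arrays (SD, n = 3) (adjusted p = 0.00036 in limma). The target that fell was Tnfsf10, the gene of the death ligand TRAIL, with a log2 change of -0.70. Bnip3 lost its call without vehicle replicate 1 (adjusted p = 0.0550), and Tnfsf10 without vehicle replicate 2 (0.0534). Other known targets did not pass. Among them Pdk4, a kinase that restrains pyruvate oxidation, stood at 0.46, Irs2, an adaptor of insulin signalling, at 0.44, Ctsl, a lysosomal protease, at 0.30, and the autophagy genes Atg12 at 0.26, Gabarapl1 at 0.14 and Map1lc3b at 0.02. Cat and Sod2, antioxidant enzymes, stood at 0.00 and -0.01, Bcl2l11, a cell death gene, at 0.03 and Cdkn1b, a cell cycle inhibitor, at -0.09.

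Of 28 measured kinases, acetyltransferases and other regulators of FOXO proteins, 2 rose and 26 did not pass, while 0.947% of all genes rose. At an unadjusted limma p under 0.05, 5 of the 28 were higher and 0 lower, against 6.32% and 5.99% of all genes. The median log2 change of these regulators was 0.05, and it was -0.01 when vehicle replicate 3 was left out and 0.09 when replicate 1 was. This list too was chosen with earlier results of these data known, so its counts are a description. Sgk1, a kinase that like AKT phosphorylates FOXO proteins, was 0.60 ± 0.07 on the digoxin arrays (SD, n = 5), against -0.35 ± 0.16 on the vehicle arrays (SD, n = 3), a change of 0.95 (adjusted p = 0.00057 in limma). Pik3r1, the regulatory subunit of PI3 kinase upstream of AKT, was 0.75 ± 0.08 on the digoxin arrays (SD, n = 5), against 0.02 ± 0.03 on the vehicle arrays (SD, n = 3), a change of 0.73 (adjusted p = 0.00040 in limma). Akt1 stood at -0.04 and Akt2 at 0.05, and neither passed.

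Of 21 measured transcriptional regulators reported to act on atrophy genes, 4 rose and 17 did not pass, with a median log2 change of -0.05 (-0.10 without vehicle replicate 3, -0.02 without digoxin replicate 1). Across all genes 0.947% rose past the adjusted threshold. At an unadjusted limma p under 0.05, 6 of the 21 were higher and 8 lower, against 6.32% and 5.99% of all genes. This list was also chosen with earlier results of these data known, so its counts are a description. The 4 that rose were Klf15 (1.01), a Kruppel-like factor that acts with the glucocorticoid receptor on Trim63 and Fbxo32 in skeletal muscle, Cebpd (0.81) and Cebpb (0.64), C/EBP factors, and Klf9 (0.51), a Kruppel-like factor induced by glucocorticoids. Klf15 averaged 0.82 ± 0.15 on the digoxin arrays (SD, n = 5), against -0.18 ± 0.17 on the vehicle arrays (SD, n = 3) (adjusted p = 0.0019 in limma). Nr3c1, the gene of the glucocorticoid receptor, stood at -0.27 (adjusted p = 0.101 in limma), without overlap between the groups. Atf4, a factor of the integrated stress response, stood at -0.28, Myog, the gene of myogenin, at -0.27, and Mef2d, a MEF2 factor of muscle, at -0.21, each with overlapping groups and short of the adjusted threshold. Cdkn1a, Depp1, Cited2, Sesn1, Txnip, Bcl6, Sgk1, Pik3r1, Klf15, Cebpd, Cebpb and Klf9 each passed in all 8 fits that left out 1 array.

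**Figure D3:**
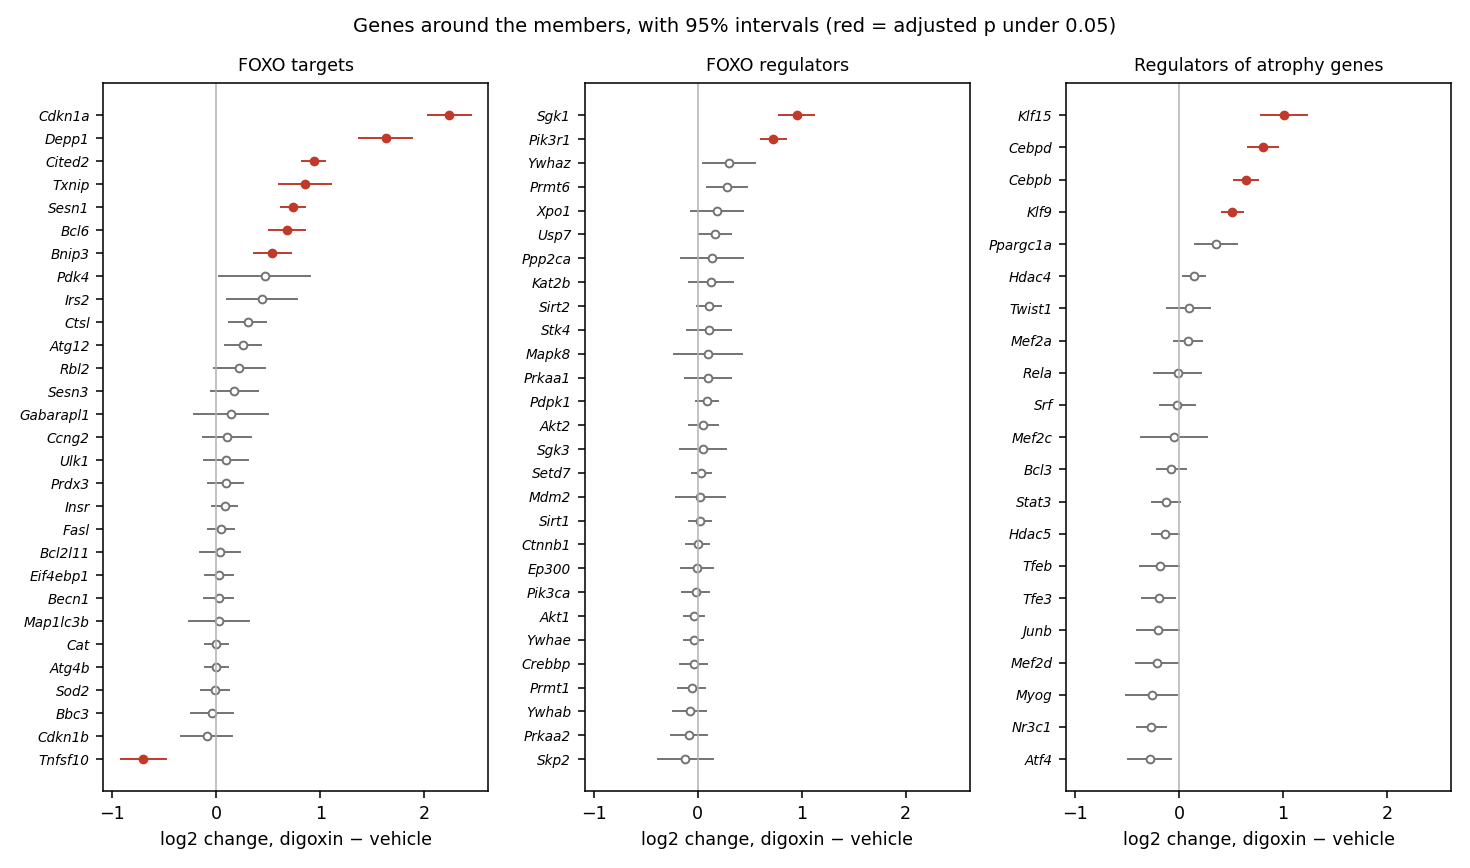
Log2 change, digoxin minus vehicle (horizontal axis), with 95% intervals for measured FOXO targets, regulators of FOXO proteins and transcriptional regulators of atrophy genes, each ordered by change. Red filled points passed the test, 8 of 29 targets, 2 of 28 FOXO regulators and 4 of 21 transcriptional regulators.

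The remaining gene lists held no call in limma on the values as deposited with all arrays. None of 23 other ubiquitin ligase genes of muscle passed (median 0.05, but -0.003 when vehicle replicate 3 was left out and 0.09 when replicate 1 was), and the smallest p values were those of Traf6 (0.25, adjusted p = 0.0926 in limma), a ligase of cytokine signalling, and Fbxo31 (0.21), an F-box gene. Traf6 passed with quantile and with scale normalization. At an unadjusted p under 0.05, 2 of these 23 were higher and 1 lower, against 6.32% and 5.99% of all genes. Trim55, the gene of MuRF2, stood at -0.10. None of 16 genes of ubiquitin conjugation and the SCF core passed (median 0.04), with Cops5 at 0.29 and Usp14 at 0.27, and at an unadjusted p under 0.05 the count was also 0. Both stood lowest on vehicle replicate 3, Cops5 at -0.70 and Usp14 at -0.60, and without that array their changes were 0.08 and 0.07, the median of the list was -0.04 and 1 of its genes fell. None of 20 reported substrates of atrogin-1 and MuRF1 and titin partners passed (median 0.02). Among them Myl2, the ventricular myosin light chain, stood at -0.28 and Chmp2b, an endosomal sorting gene, at 0.21. At an unadjusted limma p under 0.05, 1 of the 20 was higher and 2 lower, against 6.32% and 5.99% of all genes. None of 23 genes of myostatin and activin signalling passed (median -0.05). At an unadjusted limma p under 0.05, 1 of the 23 was higher and 5 lower, against 6.32% and 5.99% of all genes. Among the lower ones Fstl1 stood at -0.35 and Inhba at -0.21, both without overlap between the groups. There Furin, a protease that cleaves the myostatin precursor, stood at 0.24 (adjusted p = 0.0702 in limma), and Bmp1, a tolloid protease of the kind that cleaves the myostatin propeptide, at -0.23. Furin passed with scale normalization, and with array weights 2 genes of this list fell, Bmp1 among them.

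The genes with profiles most like those of Fbxo32, Foxo3 and Mstn were found by the root mean square difference over the 8 arrays, after each gene was set to 0 at its vehicle mean. For Fbxo32 they were Fbxo7, another F-box gene (0.08), Ppip5k2 (0.09), Klhl33 (0.09), Klf9 (0.10) and Tgfbr3 (0.10). Their changes lay between 0.42 and 0.53. For Foxo3 they were Ascc1, Eif2ak4, Ndrg1, Phkg2 and Flt1, with differences of 0.04 to 0.07 and changes of 0.31 to 0.40. For Mstn they were Klhdc3, Clec12b, Sh2b3, Thoc3 and Slc44a2, with differences of 0.04 to 0.06 and changes of 0.20 to 0.24. Treatment is part of this likeness, since all 8 arrays enter it.

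Markers of cell types were read on the same arrays. All 8 atrial markers had lower digoxin means, while 44.4% of all genes had higher ones. The mean of these markers lay between -0.40 and 1.68 in digoxin hearts and between 0.23 and 2.30 in vehicle hearts. Their median log2 change was -0.99 and none passed, with 0 also at an unadjusted limma p under 0.05. With that mean as a covariate Fbxo32 had a change of 0.52 (adjusted p = 0.0495 in limma), Foxo3 of 0.44 (0.0672) and Mstn of 0.24 (0.128). The mean of 10 skeletal muscle markers, which would show muscle from outside the heart, lay between -0.07 and 0.04 in digoxin hearts and between 0.01 and 0.14 in vehicle hearts. Digoxin means were higher for 3 of the 10, against 44.4% of all genes. The mean of 8 cardiomyocyte markers lay between -0.06 and 0.04 in digoxin hearts and between -0.03 and 0.03 in vehicle hearts. In the other marker lists the means over each list overlapped between the groups. Their median changes were 0.21 for 7 smooth muscle and pericyte genes, -0.11 for 7 fibroblast genes, -0.04 for 8 endothelial genes, -0.03 for 7 macrophage genes, -0.02 for 5 lymphocyte genes and -0.01 for 5 adipocyte genes, and 1 erythroid gene stood at -0.21. Digoxin replicate 4 stood apart in the lymphocyte genes, with a mean of 1.17 while the other 7 arrays lay between -0.09 and 0.12, and it was the highest array in the adipocyte genes, at 0.50. The smooth muscle and pericyte mean was highest on digoxin replicate 1, at 0.54, and on digoxin replicate 4, at 0.44, and the vehicle arrays reached 0.21. Of all these markers Esam, an endothelial adhesion gene, was the one that passed (0.46, adjusted p = 0.0486 in limma). At an unadjusted limma p under 0.05, 2 endothelial genes were higher and 1 lower, and 1 fibroblast gene was higher and 1 lower. Of the macrophage genes 2 were lower and 0 higher. In the cardiomyocyte, skeletal muscle, and smooth muscle and pericyte lists 1 gene each was lower and 0 higher. Over all genes 6.32% were higher and 5.99% lower. The part of cell makeup in the results was not tested beyond the atrial covariate. Centred values cannot show whether a marker is absent, so the labelled tissue could not be checked by level.

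**Figure D4:**
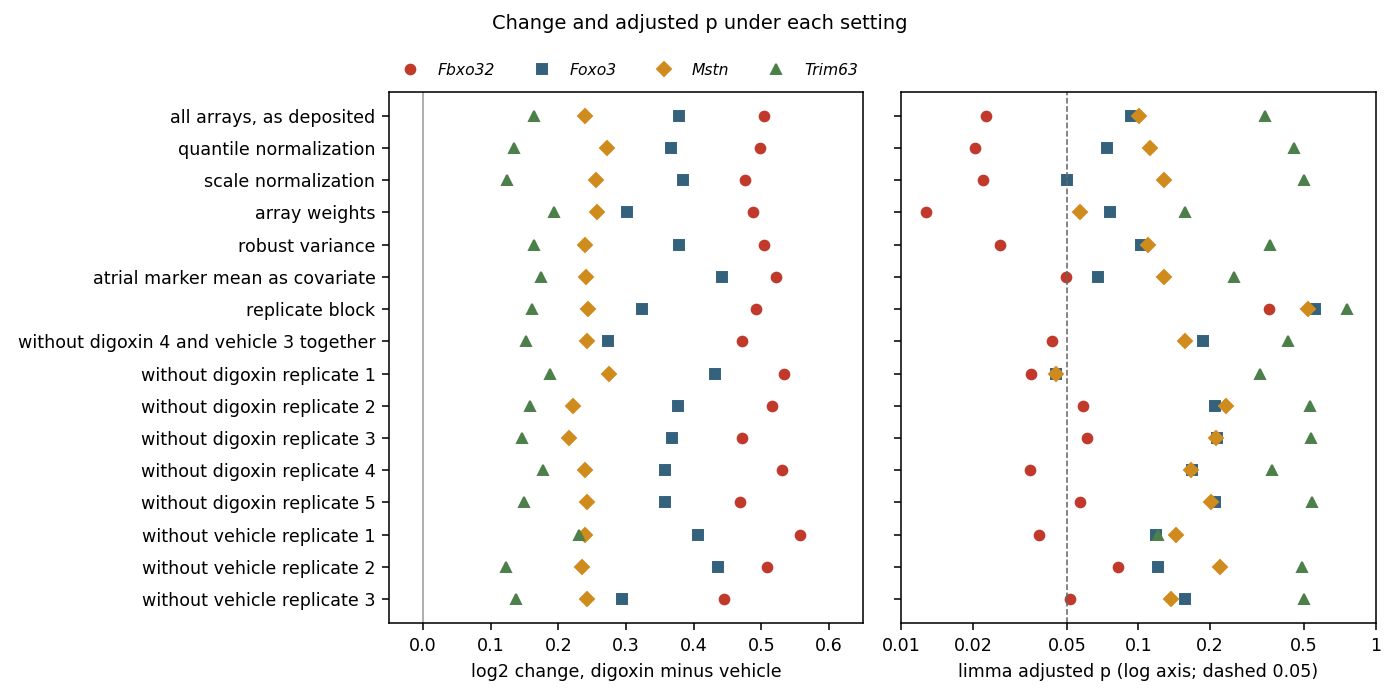
Log2 change (left axis) and limma adjusted p (right, log axis, dashed line at 0.05) of Fbxo32, Foxo3, Mstn and Trim63 with all arrays and under 15 alternatives. The change of Fbxo32 stays between 0.45 and 0.56 while its adjusted p lies on both sides of the line, and Foxo3 and Mstn cross it only without digoxin replicate 1.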

How the data were processed

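The values are the deposited log2 expression values of Affymetrix Mouse Gene 2.0 ST arrays. The authors normalised the arrays with Robust Multi-array Average, as the series design text states, and the submitters' processing notes name limma. Neither tool versions nor the constant used for centring were found in the labels. The log base is taken as that of the method. Of 34351 probe sets, 23521 carried 1 symbol in the platform annotation and were averaged into 22180 genes.

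Digoxin and vehicle arrays were compared with limma 3.58.1 in R 4.3.3 (lmFit, eBayes, no covariate, 6 residual degrees of freedom). The number of arrays limits precision, and the p values measure the spread between samples numbered separately in the titles, not stated to be separate mice. The labels place all vehicle arrays before the digoxin arrays, so treatment cannot be told apart from array order. Replicate numbers follow the titles, and the description field numbers the arrays of each group in the opposite order. Replicates sharing a title number did not deviate together, and no pairing was used. Pairs by the description numbers were not checked.

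The 10 genes and the lists (7 gene lists, 10 marker lists) were chosen with earlier results of these data known. Genes named are the 10, up to 4 past the test per list by smallest p (otherwise the 2 of smallest p), and the 5 nearest profiles of Fbxo32, Foxo3 and Mstn. The search for nearest profiles left out the 10 genes themselves and predicted, small RNA, olfactory and vomeronasal receptor genes. Others named illustrate a list and were chosen after their values were seen. Alternatives were other normalizations, probe sets, variance models, array weights, thresholds, a replicate block, an atrial covariate and each array left out. Dim probe sets could not be filtered, and background correction could not be tried, on centred values.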

Additional observations from a re-analysis of the deposited data

Results flagged for a closer look

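In digoxin hearts, 2 of the 10 genes had an array far from the rest of its group, judged by its gap to the nearest array as a share of the group's range. For Foxo3 the low value of digoxin replicate 1 made up 0.743 of the range. For Foxo6 the low value of digoxin replicate 4 made up 0.816. Chance flags about 1 in 20 groups, and the 3 vehicle arrays are too few for this test.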

How the results depend on the processing

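The log2 changes of Fbxo32, Foxo1, Foxo3, Trim63 and Mstn kept their sign under all 17 alternatives tried for each (Foxo1 and Trim63 passed in none). Of the 10 genes, the number that rose was 0 to 3 with 1 array left out, 0 at an adjusted p of 0.01 and 2 at 0.1, and 0 fell under each of these (limma, with 0 also at an unadjusted p under 0.05 with all arrays). Across all genes 123 to 185 rose and 29 to 189 fell with 1 array left out, while array weights gave 320 falls, and leaving out digoxin replicate 4 with vehicle replicate 3 gave 282 falls. At a threshold of 0.1, 327 rose and 166 fell, and at 0.01, 95 rose and 23 fell. In the gene lists 13 rose and 1 fell. With 1 array left out 13 rose and 0 to 2 fell, 4 fell with array weights and 3 fell without both arrays named above. With the replicate block, in which only 3 numbers hold both groups, 11 genes rose and 1 fell, 0 of the 10 genes rose (Fbxo32 0.49, adjusted p = 0.354), and 3 list genes rose and 0 fell. The correlation of deviations was -0.20, -0.02 and 0.02 for title numbers 1 to 3, which shows no pairing by these numbers. Pairs by the numbers of the description field were not checked, so these values cannot exclude a pairing.

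Values near 0 changed sign. Fbxo30 was -0.054 with quantile normalization, -0.049 with scaling, -0.049 with array weights, -0.067 without digoxin replicate 4 and vehicle replicate 3, and between -0.11 and 0.10 with 1 array left out. Foxo6 was 0.038 with array weights, 0.068 without both arrays and between -0.12 and 0.038 with 1 left out. Fbxo21 was 0.063 and Foxo4 -0.00089 with the atrial covariate, Trim54 was -0.012 with the block, and Fbxo21 lay between -0.11 and 0.090 with 1 array left out. The cause was not tested.

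With 1 array left out, Fbxo32 minus Trim63 lay between 0.31 and 0.39, minus Fbxo30 between 0.43 and 0.56, and minus Fbxo21 between 0.47 and 0.56. They no longer passed without vehicle replicate 1 or 3 (0.0635), or without digoxin replicate 4 and vehicle replicate 3 (0.32, 0.54 and 0.58, each adjusted p = 0.0889). Fewer assignments exist there, and without both arrays the lowest p possible is above 0.05, so none could pass. With a vehicle array left out, they could pass only where Foxo3 minus Foxo1 also reached the lowest p possible. These failures therefore say nothing about the differences. Foxo3 minus Foxo1 lay between 0.13 and 0.34, and passed without vehicle replicate 2 (adjusted p = 0.0476) and with scaling (0.24, adjusted p = 0.0357), by the exact permutation test.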
